A study of Drosophila melanogaster with 8 samples.

Results

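The regions bound by Deadpan (Dpn) in all neuroblasts (NBs, the neural stem cells of the fly) of the Drosophila larval brain were taken as the complete list of peaks called from Dam-Dpn against Dam-only with the wor-GAL4 driver. On 2L, 2R, 3L, 3R, 4 and X the list holds 4282 peaks, of 7756 peaks in the 2 lists deposited for the series. Binding was measured by Targeted DamID. The Dam-Dpn larvae carried a FlyORF-TaDa line that places the bacterial methylase Dam on Dpn, and the Dam-only larvae carried Dam with no partner. Larvae of both groups also carried wor-GAL4, an NB driver, and tub-GAL80ts, which holds the driver off at 18°C. Eggs from a 4 h lay at 25°C were kept at 18°C for 2 days, and larvae grew there for 5 more days at 100 a plate before being moved to 29°C, where the driver is active. Each group had 2 biological replicates of 30 pooled brains, taken in the third larval instar. The deposited list is of the averaged replicates, so a peak carries no error over replicates, and depth is not part of the list.

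Dpn is a basic helix-loop-helix (bHLH) repressor of the Hes family. It keeps NBs dividing asymmetrically and undifferentiated, partly as a target of Notch together with the E(spl) proteins. Dam methylates adenine in GATC wherever its partner brings it, so a DamID peak marks GATC fragments that were methylated more by the fusion than by free Dam. A peak is therefore as wide as the fragments it joins, and shows neither the exact contact nor what the gene does afterwards. A list of regions holds no expression values, so the NB label could not be checked against marker genes. The fusion was made from a transgene that holds the dpn coding sequence, and at dpn itself signal from the transgene and from the gene cannot be told apart. The driver contains regulatory DNA of wor, and the part of the transgene in the wor peaks was not tested.

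The 4282 peaks covered 6975497 bp. Their median width was 1408.5 bp, with quartiles of 845 and 2146.5 bp, and they ran between 34 and 10274 bp. Peaks of 1 to 2 kb were the most frequent class, with 1668 peaks (39.0%), ahead of 1205 peaks (28.1%) of 2 to 5 kb. There were 410 peaks (9.57%) below 500 bp and 49 (1.14%) of 5 kb or more. Most of the list therefore lay in a narrow range of widths, and very broad domains were rare.

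**Figure D1:**
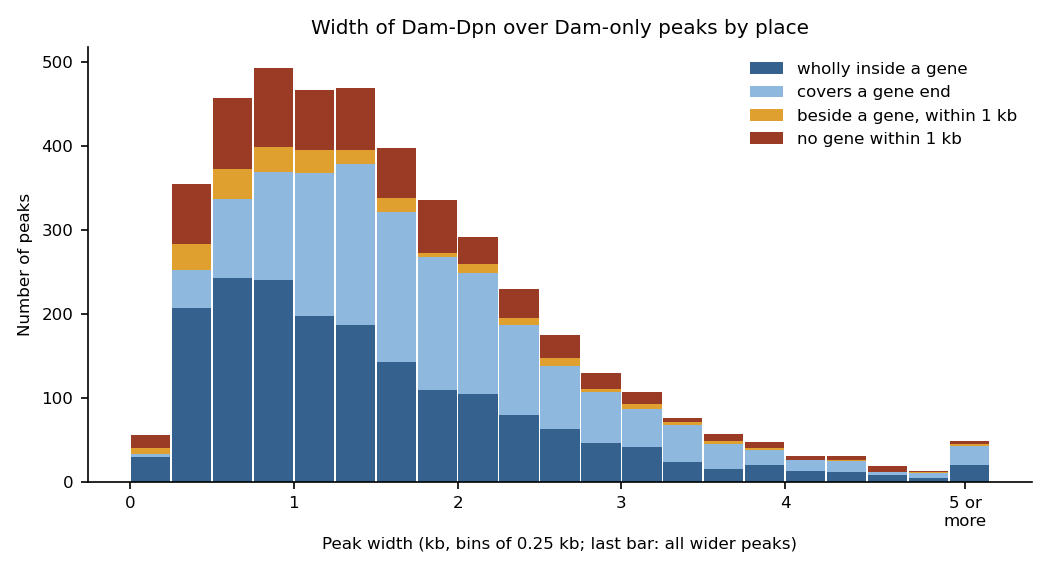
Widths of the 4282 Dpn peaks in kb (x axis) against the number of peaks (y axis), with colours for the place of the peak relative to genes and the last bar for the 49 peaks of 5 kb or more. Below 1 kb the peaks inside genes are the largest group in each bar, and above it peaks over a gene end gain in share.

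Each peak also has a score given by the peak caller, for which no scale is stated. It is used here only to order the peaks of this list. Scores ran from 1.18 to 9.89 with a median of 4.01 and quartiles of 2.78 and 5.58. The highest FDR in the list was 0.0078, and 3360 peaks (78.5%) had an FDR below 0.001. Width and score were weakly related. Spearman's rho between width and score was -0.131 over the 4282 peaks, which are not independent of one another. With the peaks in 4 equal sets by width, the narrowest set (median width 568 bp) had a median score of 4.38, and the widest set (median width 2780 bp) one of 3.59.

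Set on the RefSeq genes of Release 6, 1800 peaks (42.0%) lay wholly inside a gene and 1557 (36.4%) covered at least one end of a gene. A further 218 (5.09%) lay beside a gene but within 1 kb of it, and 707 (16.5%) had no gene within 1 kb. Which end of a gene is the promoter was not used here. The places differed in width and score. Peaks over a gene end had a median width of 1702 bp and a median score of 3.46, whereas peaks inside genes had medians of 1228 bp and 4.28. Peaks beside a gene had a median score of 4.63 and a median width of 1063.5 bp. The peaks with no gene within 1 kb had a nearly equal median score, 4.64, the highest of the 4 places, at a median width of 1292 bp. Their nearest gene was a median of 4250 bp away, and for 45 of them it was over 20 kb away.

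Sorted by score into 4 sets of near equal size, the list changed in composition from bottom to top. Peaks over a gene end made up 48.9% of the lowest set, 42.0% and 32.4% of the middle sets and 22.1% of the highest. Peaks with no gene within 1 kb went the other way, at 12%, 13.6%, 16.3% and 24.1%. Peaks with 2 or more genes within 1 kb made up 51.7% of the lowest set and 27.1% of the highest. Clustering followed the same order. The share of peaks in clusters of at least 5, with gaps of at most 5 kb, was 6.91%, 8.04%, 13.9% and 25.6%. High-scoring Dpn peaks thus lay more often inside genes or away from them, and next to other peaks, while low-scoring ones lay more often at gene ends in gene-dense stretches. These shares describe 1 averaged list and were not tested.

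**Figure D2:**
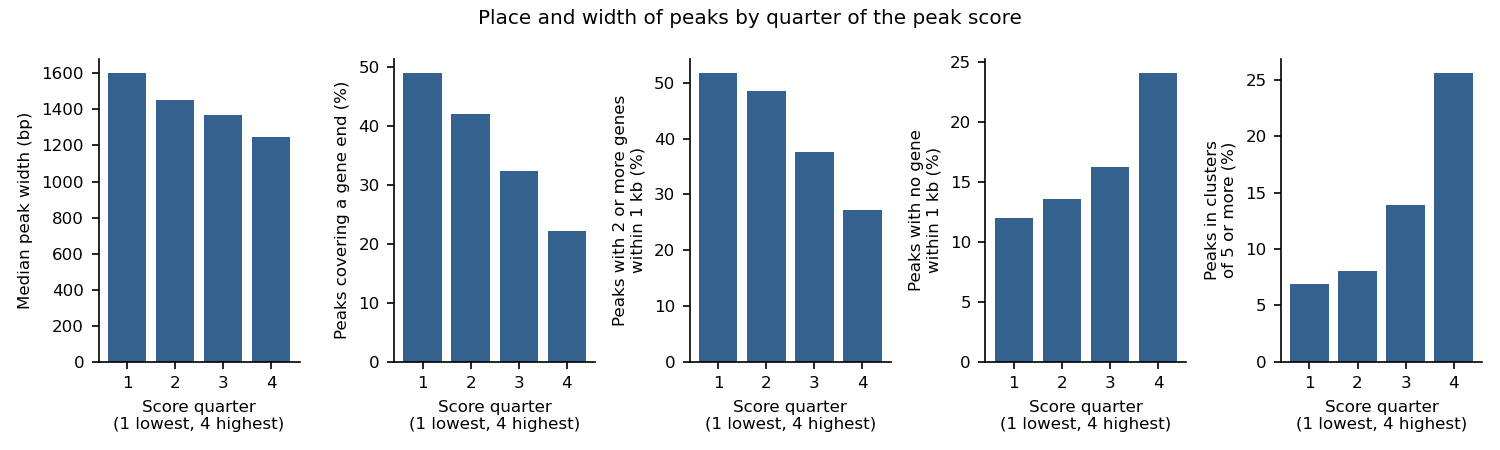
Peaks in 4 sets by score, lowest to highest (x axis). The panels show the median width in bp and the shares in percent (y axes) of peaks that cover a gene end, have at least 2 genes within 1 kb, have no gene within 1 kb or lie in clusters of at least 5. Gene-end peaks make up 48.9% of the lowest set and 22.1% of the highest, and clustered peaks 6.91% and 25.6%.

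The highest score, 9.89, belonged to a peak of 438 bp inside plum (3R:26507826-26508263), an immunoglobulin superfamily gene that acts in axon pruning. The second highest, of 9.39, lay within 1 kb of CG34057, lncRNA:CR46200 and mat (3L:898866-902204). Peaks of 8.82 and 8.63 lay at lncRNA:CR44732 and babos. Some others among the 10 highest lay in or beside genes of regulators. A peak of 8.86 lay beside gcm, which directs glial fate and ends neurogenesis in the oldest medulla NBs (2L:9577301-9578928, also within 1 kb of Mtpalpha and CG31709). A peak of 8.64 lay at the BTB-domain gene lov (2R:25101173-25102494). Within 1 kb of 5 of the 10 highest peaks there was an lncRNA gene, as was the case for 12.4% of all peaks. They included lncRNA:CR45037 within the E(spl) complex (9.09), lncRNA:acal beside lola (2R:10548133-10548920, 8.72) and lncRNA:CR43334 in the bantam region (3L:644045-645568, 8.65). The highest peaks were mostly not isolated, since 9 of the 10 belonged to groups of at least 3 peaks. Of all peaks, 42.1% stood alone and 21.5% in pairs. The exception among the 10 was a peak of 5288 bp in sbb (2R:18336511-18341798, 9.08), which encodes a nuclear protein of axon targeting. Of the 25 highest, 5 had no gene within 1 kb, close to the 16.5% of all peaks. The highest of these 5 lay at 3R:29703765-29704817 (8.62), 6740 bp from the nearest gene.

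The 10 widest peaks, all of 6726 bp or more, had a different profile. Of these, 9 scored below the median of the list, 5 of them in the lowest set of scores. No other peak lay within 5 kb of 7 of the 10, as was the case for 42.1% of all peaks. In the widest of the 4 sets by width the share was 42.6%, so wide peaks in general were not more isolated. The widest lay wholly inside CadN, the gene of N-cadherin (2L:17720935-17731208, 10274 bp, score 1.75). The peak of 9457 bp at HisT and M7BP scored 3.96 and the one of 8554 bp at Sema1a, an axon guidance gene, 3.59. The peak of 7761 bp at kis, which encodes a chromatin remodeller, scored 4.68 and was the exception to the low scores. The cell fate determinant numb held a peak of 7062 bp with a score of 3.98. A second peak at plum, of 6965 bp and also within 1 kb of scrib, scored 2.5, so the gene with the highest peak of the list held a broad low-scoring peak as well.

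Within 1 kb of the peaks lay 4654 of 17673 genes (26.3%), among them 3711 of 13911 protein-coding genes (26.7%). These shares are the background for every gene class below, and they are not matched for gene length. Of the 4654 genes, 3687 (79.2%) had 1 peak, 655 (14.1%) had 2 peaks and 312 (6.7%) had 3 or more. The peak itself often did not point to 1 gene. For 3558 of the genes (76.5%), each of their peaks was also within 1 kb of another gene, and 1766 peaks (41.2%) had at least 2 genes in reach. Genes with a peak were long, with a median length of 2639 bp against 1519 bp for genes without one. In 5 equal sets of genes by length, short to long, 19.4%, 18.9%, 21.5%, 27.4% and 44.5% of genes had a peak. The length covered by peaks ran the other way. It was 8.9% of the gene plus 1 kb on each side in the shortest set and 5.24% in the longest, so that longer genes had a peak more often without being more densely covered.

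The chromosome arms carried similar densities of peaks. There were between 30.7 peaks per Mb on 2L and 2R and 32.2 on 3R, with 35.4 on X. The small chromosome 4 had 40.1 per Mb, from 53 peaks, and 28.3% of them lay in clusters of at least 5.

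A small set of genes held many peaks. There were 86 genes with at least 5 peaks and 15 with at least 10. Among protein-coding genes hth had the most, 23 peaks with scores between 2.03 and 8.3 that covered 32035 bp. It encodes a TALE homeodomain protein and is the earliest factor of the medulla temporal series. The gene jing, a zinc finger factor of glia and trachea, followed with 20 peaks, and its 37919 covered bp were 31.1% of the gene with its flanks. Antp, a Hox gene, had 14 peaks over 33857 bp. The ecdysone-response genes br and Eip75B had 12 peaks each, heph, a polypyrimidine tract-binding protein, 12, and svp, a nuclear receptor of NB timing, 10. Nested genes share peaks, and 10 of the 15 genes shared 2 or more of theirs with another gene. The lncRNA gene lncRNA:CR32773 had 27 peaks along 223710 bp, but these include all 8 peaks of bi. Mur2B had 14, of which 12 are the peaks of br. In the same way CG32816 had 15, among them the 3 peaks of ase and the 2 of l(1)sc. Genes of 10 kb or more with the densest coverage were HGTX (51.3%), dac (51.1%) and Awh (50.6%), all of them genes for transcription factors.

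Length did not by itself come with many peaks. Among 1973 protein-coding genes of at least 10 kb, 978 (49.6%) had a peak and 81 (4.11%) had 5 or more. The 103 developmental regulators among them (17 lists of NB, patterning and transcription factor genes, grouped after their values were seen) had a peak in 89 cases (86.4%) and 5 or more in 30 (29.1%). Their density was 9.77 peaks per 100 kb. The cell-recognition genes of the dpr, DIP, beat and side families were longer, with a median of 41.18 kb against 26.72 kb for the regulators. Of those 44, 5 (11.4%) had a peak, none had more than 1, and the density was 0.2 per 100 kb. The remaining 1826 long genes had 2.91 per 100 kb. Of the 100 longest protein-coding genes, 35 had no peak at all, including Pzl (709421 bp), DIP-lambda (379081 bp), Snap25 (225026 bp), dpr6 (164710 bp), Sh (138941 bp) and dpy (136839 bp).

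**Figure D3:**
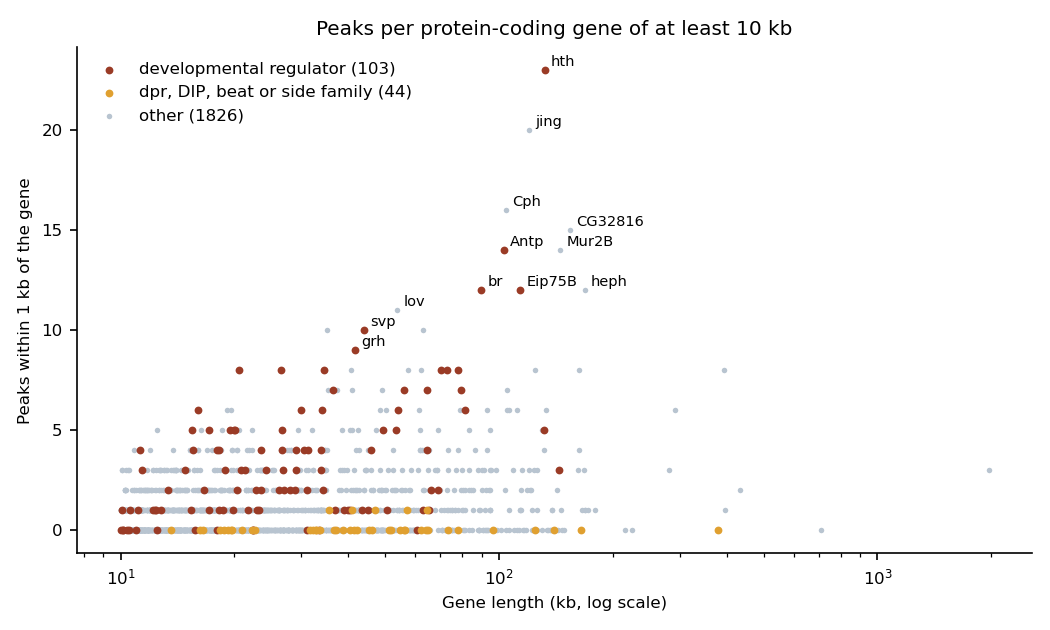
Number of Dpn peaks within 1 kb (y axis) against gene length in kb (x axis, log scale) for 1973 protein-coding genes of at least 10 kb, each point 1 gene. Developmental regulators have a peak in 86.4% of cases and up to 23 peaks, and dpr, DIP, beat and side genes in 11.4% with at most 1.

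Peaks were clustered along the arms. The gaps between neighbouring peaks had a median of 8355 bp and quartiles of 2773 and 28287 bp, and 1631 of 4276 gaps (38.1%) were at most 5 kb. Joining peaks over such gaps left 1804 peaks (42.1%) on their own and put 583 peaks (13.6%) into 92 clusters of at least 5. The share depends on the gap allowed, and was 1.21% with gaps of at most 2 kb and 32.7% with 10 kb. These clusters spanned a median of 19780 bp, and the longest spanned 40446 bp. Clustered peaks were narrower (median 1274 bp) than single ones (1446 bp) and scored higher, with medians of 5.31 and 3.54. They also lay farther from genes. No gene was within 1 kb of 161 of the clustered peaks (27.6%), against 546 (14.8%) of all other peaks. In the 4 clusters of at least 10 peaks the share was 53.2%. Of the 92 clusters, 40 (43.5%) had a developmental regulator within 1 kb of a peak and 5 had no gene at all. Counted by peak, 26.9% of the clustered peaks were near a developmental regulator, beside 11.1% of all peaks.

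The 3 runs with the most peaks held 12 each. The first lay over the bantam microRNA gene mir-ban and 4 lncRNA genes (3L:613127-646972). Bantam promotes growth and holds back cell death. All 12 peaks of this run scored between 5.41 and 8.65, and together they covered 51.6% of the span. Peak 9 of the run, with a score of 7.07, was the only one within 1 kb of mir-ban itself, and 3 had no gene within 1 kb. The second run lay around D, the Sox factor of the medulla temporal series (3L:14147701-14184180). Its scores were between 4.17 and 8.06, yet 11 of its 12 peaks were more than 1 kb from any gene, and the single peak within reach of D scored 4.54. A count of peaks within 1 kb therefore gives D 1 peak where its surroundings hold 12. The third run covered the paired-type homeobox genes gsb and gsb-n (2R:25042219-25077384), with scores between 1.99 and 6.88.

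A run of 11 peaks lay at stg (3R:29253130-29276029), the Cdc25 phosphatase that sets the time of entry into mitosis. The 3 peaks within 1 kb of stg scored 5.97, 6.27 and 7.25, and 7 of the 11 had no gene within 1 kb, including one of 8.37 (3R:29264442-29266609). The whole run scored between 5.31 and 8.37 and covered 54.3% of its span. As at D, most of the stg run lay outside the gene itself. The opposite was seen at grh, a factor of NB maintenance, where 9 peaks with scores of 3.23 to 7.95 (2R:17800942-17829757) were all within 1 kb of a gene. The 9 peaks of a run on X (4387514 to 4416253) were within lncRNA:CR32773 or bi, a T-box factor of the optic lobe. The 9 peaks beside gcm (2L:9577301-9601494) were short, with a median width of 494 bp and scores up to 8.86. All 8 peaks of tara, a cell cycle and patterning gene, lay at that gene alone and covered 61.4% of their span (3R:16230069-16257929).

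Other runs lay over genes with known parts in NBs. The 8 peaks at lola (2R:10529900-10556594), a BTB factor that keeps neurons from reverting to NBs, scored between 5.06 and 8.72. A run of 7 at cas, a late factor of the embryonic NB series, scored between 6.14 and 8.18 and covered 68.0% of its span (3R:5714590-5732493). Runs of 8 were found at vnd, a columnar gene of the neuroectoderm, at opa and at slp1 and slp2, and runs of 7 at wor and Imp. A run of 8 at Psc, a Polycomb group gene (2R:12949845-12990290), spanned 40446 bp. Some runs were in places without regulators in the lists. One of 8 peaks (3R:7014523-7048326) had only lncRNA:CR44933 within 1 kb of any of them. Another of 7 peaks was at the 5S rRNA genes (2R:19729654-19763267) and differed from the rest. Its scores were low and close together, 2.74 to 3.28, and 5 of its peaks were between 1832 and 1853 bp wide. It alone had 77 genes within 1 kb, tandem copies among which reads cannot be assigned to a single gene.

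**Figure D4:**
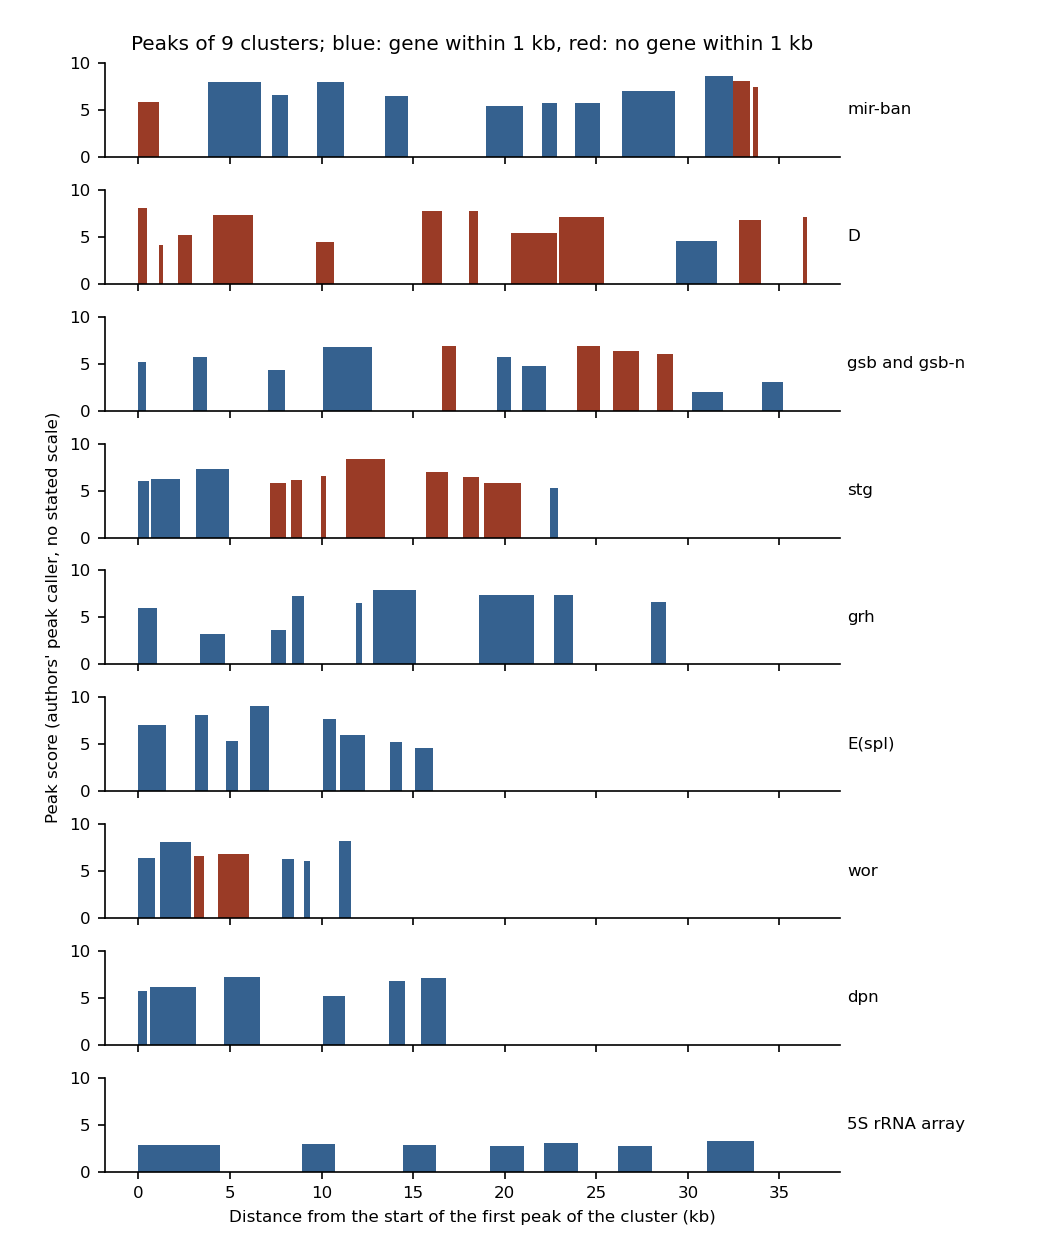
Peaks of 9 clusters drawn to scale in kb from the first peak of each (x axis), with the peak score as height (y axis). Blue peaks have a gene within 1 kb and red peaks have none: 11 of 12 peaks at D and 7 of 11 at stg are red, and none of 9 at grh.

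Gene classes differed widely in their share of members with a peak. Of 61 classes, 45 lay above the 26.3% of all genes and 16 below it. Shares of single classes were not matched for gene length, and long genes had a peak more often. Some classes above 26.3% had less of their genes and flanks covered than the 5.98% of all genes. Among them were RNA-binding (4.31%, median length 45220 bp), general neuronal (3.18%, 26844 bp), Hedgehog (3.3%, 6615 bp) and muscle genes (1.68%, 10230 bp). The classes with a peak at every member were Hox genes (8 of 8), the medulla temporal network (15 of 15), NB identity genes (16 of 16), segment polarity genes (13 of 13) and type II lineage genes (13 of 13). Osiris genes (0 of 25) and Jonah proteases (0 of 16) had none. In all, 161 of 209 developmental regulators (77.0%), 129 of 368 genes of housekeeping machinery (35.1%) and 51 of 643 genes of receptor, cuticle and other large families (7.93%) had a peak. The difference was also seen at like gene length. All 209 regulators fell into the 4 longer of the 5 sets by gene length. In these 4, short to long, their shares were 73.3%, 73.7%, 66.0% and 82.0%, against 18.9%, 21.5%, 27.4% and 44.5% of all genes.

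The peaks of these groups were of different kinds. The 476 peaks at regulators had a median score of 4.68, and 26.9% covered a gene end, 29.4% were also near another gene and 33.0% lay in clusters of at least 5. The 144 peaks at housekeeping genes had a median score of 2.94, 75.7% covered a gene end, 95.1% were also near another gene and 1.39% lay in such clusters. Regulators had 79 peaks in the lowest set of scores and 173 in the highest, and housekeeping genes had 61 and 7. The median widths of 1438 and 1487.5 bp were close, so width did not separate them.

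**Figure D5:**
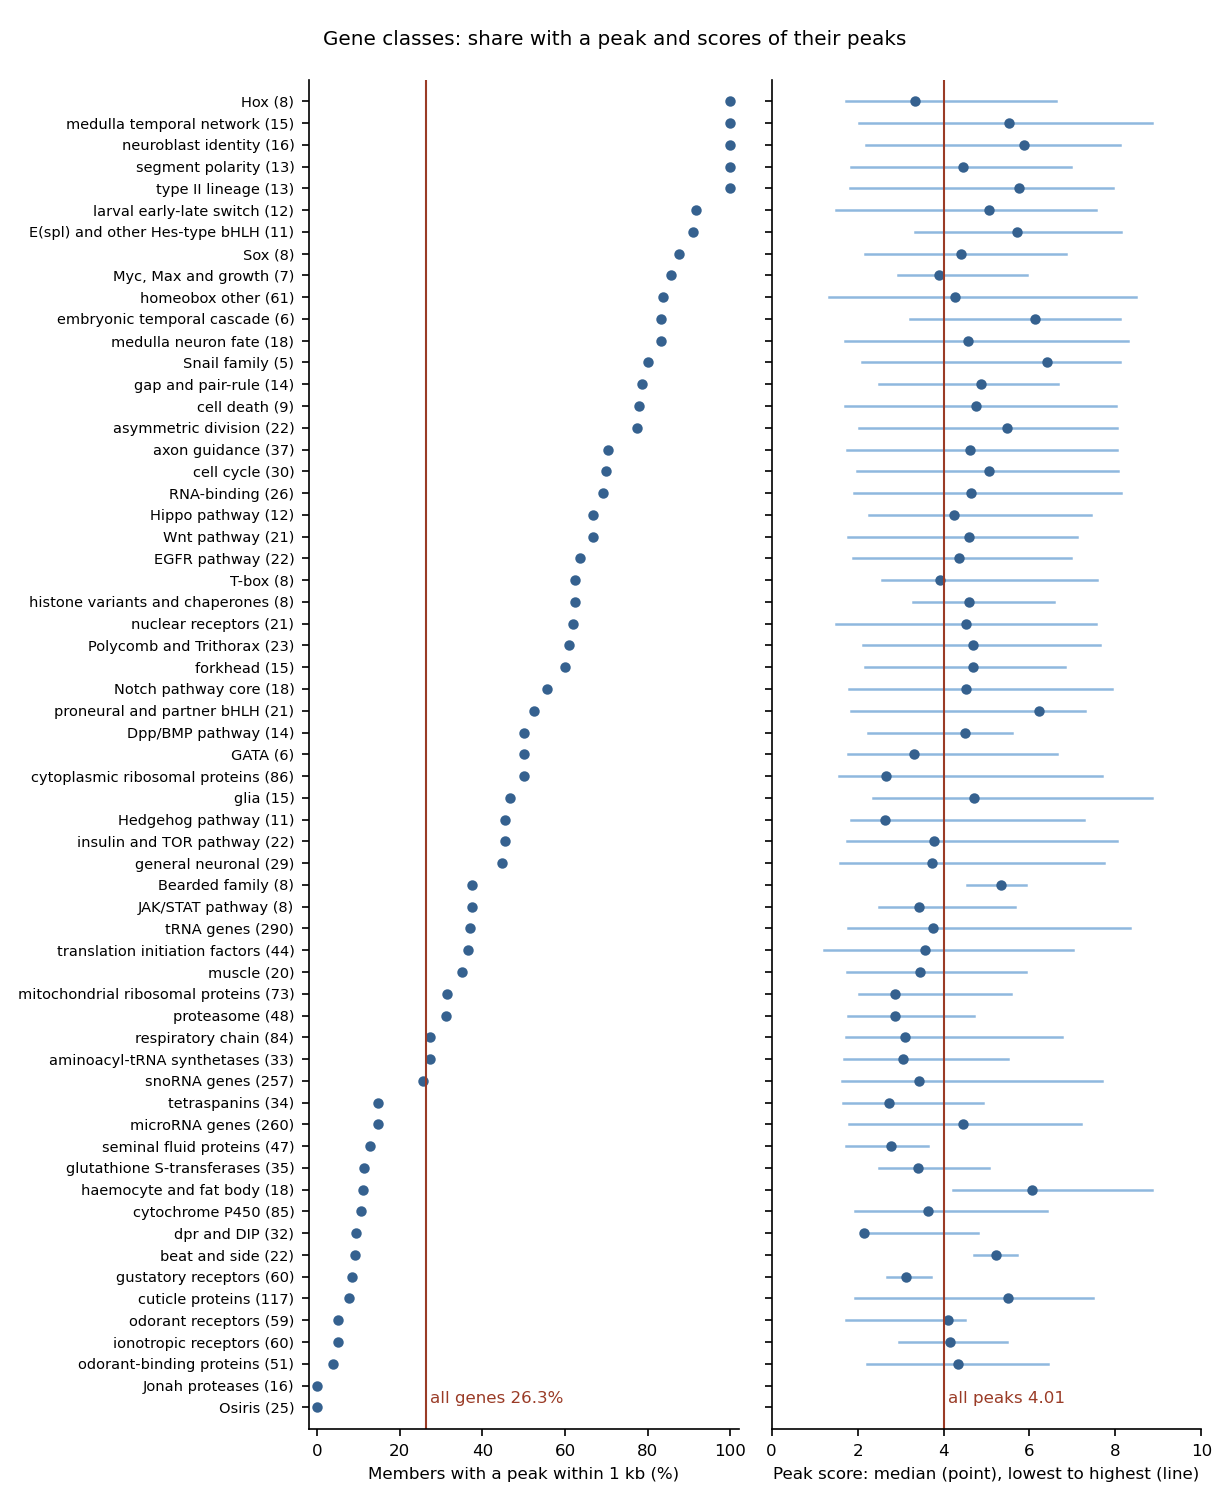
Share of members with a Dpn peak within 1 kb in percent (left, x axis) and score of the peaks with median as point and range as line (right, x axis) for 61 gene classes, 1 a row with its number of genes. Lines mark the 26.3% of all genes and the median score of 4.01; 45 classes lie above the first line and 16 below.

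All 16 NB identity genes had a peak, with a median score of 5.88 over 50 peaks, and 13 had a peak in the highest set of scores. With the higher-scoring 50% of the peaks all 16 still had a peak, against 10.9% of all genes. At dpn itself there were 2 peaks, of 462 bp with a score of 5.72 (2R:8230877-8231338) and of 2520 bp with 6.14 (2R:8231528-8234047). They open a run of 6 peaks that ends at 8247659. The proneural-type factor ase, a marker of type I NBs, had 3 peaks with scores of 6.81, 5.76 and 5.76 (X:460191-464737). The Snail family gene wor, expressed in NBs throughout the brain, had peaks of 6.41 and 8.1 (2L:15424574-15427427). Its relatives sna and esg had 1 peak each, of 6.76 and 4.67. The adaptor of the NB cortex mira had peaks of 3.67 and 6.41 (3R:19930719-19936195), and insc, which orients the spindle, one of 8.04 (2R:20836273-20837733) beside 2 of 2.99 and 3.09. Genes of the differentiating daughter cell were also in reach of peaks. The homeodomain factor pros, which ends self-renewal, had 7 peaks over 11319 bp with scores of 4.57, 7.04, 7.46, 6.07, 5.15, 7.66 and 2.2. The translational repressor brat had 4, of 7.49, 5.46, 7.1 and 4.79. The Notch inhibitor numb had 5, of 4.51, 3.98, 4.07, 7.63 and 5.55, which covered 42.6% of the gene with its flanks. At nerfin-1, which holds neurons in their state, there were 2 peaks with scores of 6.42 (3L:906919-909184) and 6.63 (3L:912111-913547). The zinc finger gene klu had 2 small peaks within 1 kb, of 275 and 242 bp, that scored 3.13 and 4.16. The second opens a run of 5 peaks (3L:11005916-11019317) whose other 4 have no gene within 1 kb, among them one of 7.97 that lies 1826 bp from the nearest gene.

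Of the 22 genes of asymmetric division, 17 (77.3%) had a peak and 12 had one in the highest set of scores. With the higher-scoring 50% of the peaks, 14 (63.6%) had a peak, against 10.9% of all genes. Their median length was 13152 bp, within the longest of the 5 sets by length, where 44.5% of all genes had a peak. The apical polarity gene baz had a top score of 6.1, the tumour suppressor l(2)gl 6.25, the G protein gene Galphai 5.92, loco 5.87 and the mitotic kinase gene polo 5.82. Low top scores were found at scrib (2.5), par-6 (2.08) and Cdc42 (2.56). No peak was within 1 kb of aPKC, aurA, mud, pins or pon, so the set was not bound throughout.

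In the Notch pathway 10 of 18 core genes (55.6%) had a peak. The receptor gene N had 7 peaks over 11914 bp on X, with scores of 7.37, 7.19, 4.44, 3.56, 2.26, 7.11 and 2.2. The ligand genes Delta and Ser had 3 peaks (6.18, 7.53 and 6.57) and 1 peak (6.35). The ubiquitin ligase gene neur, which activates Delta, had 6 peaks with scores between 1.79 and 7.74 over 40.8% of the gene with its flanks. The glycosyltransferase gene fng had 3, the highest of 7.91, and the co-activator gene mam 5, the highest of 5.12. The receptor, both ligands, neur and fng were thus each within reach of a peak that scored above 6. The DNA-binding effector Su(H) and the co-repressor genes H and gro had no peak, nor had mib1, sca and the secretase genes Nct, Psn and pen-2.

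The Notch target genes of the bHLH E(spl) family, and the Hes-type genes with them, had a peak at 10 of 11 members, with a median score of 5.72 over 13 peaks of a median width of 738 bp. With overlap of the gene required, 5 of 11 had a peak (45.5%), against 20% of all genes. A run of 8 short peaks lay along the stretch with E(spl)mdelta-HLH to E(spl)malpha-BFM (3R:25995978-26012039). None of these peaks overlapped E(spl)mdelta-HLH, E(spl)mgamma-HLH or E(spl)mbeta-HLH themselves. Their scores in order were 7.04, 8.14, 5.34, 9.09, 7.68, 6.02, 5.24 and 4.55, and their widths were between 625 and 1526 bp. The highest, the fourth of the run, lay at lncRNA:CR45037, and the peak of 8.14 was shared by E(spl)mdelta-HLH and E(spl)mgamma-HLH. E(spl)mbeta-HLH had the peaks of 7.68 and 6.02, the second reaching 52 bp into the 1 kb window of the gene. Farther along the complex E(spl)m8-HLH and E(spl)m7-HLH shared a peak of 6.83, and E(spl)m3-HLH (5.32) and E(spl)m5-HLH (3.51) had lower ones. Hey had 1 peak of 5.38 and hry 1 of 3.33, and cwo had none. In the Bearded family, small Notch-regulated inhibitors of Neur, 3 of 8 had a peak. They were E(spl)malpha-BFM (5.24), E(spl)m6-BFM (5.43) and Brd (5.92), while E(spl)m2-BFM, E(spl)m4-BFM, Tom, Ocho and BobA had none within 1 kb. Within 5 kb all 8 had a peak, against 43.2% of all genes.

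The proneural bHLH activators and their partners were split, with peaks at 11 of 21 (52.4%). Within the achaete-scute complex l(1)sc (5.11 and 7.05) and ase had peaks, and ac and sc had none. The bHLH genes tap (top score 6.98), Fer1 (6.86), Fer2 (7.3) and Fer3 (6.56) had high-scoring peaks, whereas ato reached 3.09. The inhibitor gene emc had a peak of 6.48 and da, the common partner of the class, none. Neither had amos, cato, dimm or Oli.

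All 15 genes of the medulla temporal network had a peak. Their 59 peaks had a median score of 5.52, beside 4.01 for the whole list, and 50.8% of them lay in clusters of at least 5. Medulla NBs pass through states named after Hth, Ey, Slp, D and Tll. Hth was described above. For ey there were 4 peaks with scores of 7.02, 5.88, 6.5 and 3.48, for slp1 2 of 6.67 and 4.74, for slp2 1 of 5.52, for D 1 of 4.54 and for tll 2, the higher of 5.82. The later added members opa (5 peaks, top score 6.58), erm (5, 7.19) and hbn (3, 7.04) were like these, and scro (4, 4.16), B-H1 (1, 4.36) and dmrt99B (1, 3.22) scored lower. At gcm there were 3 peaks of 8.86, 6.11 and 5.99. Every member of the network was therefore in reach of at least 1 peak, with up to 23 peaks a gene and top scores between 3.22 and 8.86.

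The older temporal cascade, first worked out in embryonic NBs, had a peak at 5 of 6 genes. The scores did not follow the order of the series. At pdm2 there were 4 peaks, the highest of 8.11, at cas 2 of 6.14 and 7.05, and at grh 9, the highest of 7.95. Kr had 1 of 5.11 and nub 1 of 3.5, and hb, the first factor, had no peak within 1 kb. Within 5 kb all 6 had a peak, against 43.2% of all genes.

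In the larval switch between early and late NB states 11 of 12 genes had a peak, and their 68 peaks outnumbered those of the other NB and temporal classes. These genes were long, with a median of 57326 bp, against 5801 bp for the medulla temporal network and 3693 bp for NB identity genes. Peaks covered 12.8% of them with their flanks, against 25.1% and 22.2% for those 2 classes. Of the 68 peaks, 41.2% were also near another gene. The early RNA-binding protein gene Imp had 7 peaks with scores of 2.67, 3.6, 3.52, 4.8, 5.57, 7.47 and 3.43, and its late counterpart Syp had 6 with 6.24, 6.9, 6.82, 6.69, 6.0 and 6.73. The number of peaks was close, but those of Syp were uniformly high and those of Imp ran from low to high. The early factor chinmo had 5 peaks with scores between 3.67 and 7.1. The switching genes svp (10 peaks, top score 7.36) and EcR (6 peaks, 7.09), and the late genes br (12, 6.44) and Eip93F (1, 7.47) had high-scoring peaks as well, as had lin-28 (1, 7.18). Eip74EF had none.

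In type II lineages, which pass through intermediate progenitors, all 13 genes had a peak. The identity genes btd and Sp1 had 2 and 4 peaks, with top scores of 4.6 and 7.76. The ETS factor gene pnt had 7 with a top score of 6.97, and ham, which limits intermediate progenitors, 6 with scores of 7.46, 5.79, 4.83, 7.87, 7.22 and 2.12. The chromatin remodelling gene osa had 4 (7.28), fru 5 (7.02), bab1 4 (6.78) and bab2 1 (2.29).

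The Hox genes were all bound but in another way. Their 32 peaks were wide, with a median of 2018.5 bp, and scored low, with a median of 3.34. There were 11 in the lowest set of scores and 5 in the highest. Antp had 14 peaks with scores between 1.79 and 6.61, and Ubx 8 with 2.54, 3.12, 5.66, 2.22, 2.19, 4.97, 5.44 and 1.91. The other members had few, with top scores of 3.56 at lab, 2.89 at pb, 2.21 at Dfd, 3.72 at Scr, 5.69 at abd-A and 3.55 at Abd-B. With the FDR below 0.001, 4 of 8 still had a peak, against 20.1% of all genes, and with the higher-scoring 50% of the peaks 3 of 8, against 10.9%.

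Among the other patterning genes, all 13 of segment polarity had a peak, the highest at nkd (6.96), inv (6.92, 7 peaks), gsb-n (6.75) and slp1 (6.67). The signalling members hh (1.84), ptc (2.63) and smo (2.38) had 1 low-scoring peak each. Of the gap and pair-rule genes 11 of 14 had a peak, with hb, odd and prd without one. Within 5 kb 13 of the 14 had a peak, against 43.2% of all genes. The list of other homeobox genes, which shares members such as hth and pdm2 with lists above, had a peak in 51 of 61 cases (83.6%). The highest scores were at vnd (8.49), hth (8.3), pdm2 (8.11), Lim3 (7.45), ct (7.44) and Lim1 (7.3), and bsh, Dr, exd, eyg, H2.0 and lbe were among those without a peak. Sox genes (7 of 8) and the Snail family (4 of 5) were high as well. T-box genes (5 of 8), nuclear receptors (13 of 21), forkhead genes (9 of 15) and GATA factors (3 of 6) also lay above the background.

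Genes of the cell cycle had a peak in 21 of 30 cases (70.0%) with a median score of 5.05. Besides stg, high scores lay at exit and brake genes. The gene of the anaphase-promoting complex activator fzr scored 8.05 and the Cdk inhibitor gene dap 7.61. Cyclin genes of mitosis were bound at CycB (3.09 and 7.45), CycA (7.06) and CycB3 (6.79 and 4.68). The G1 genes CycE and E2f1 had 5 and 8 peaks, those of E2f1 with scores between 4.01 and 7.18 over 12882 bp, and CycD had 2 of 4.01 and 2.25. Replication genes scored lower, with 4.28 at Mcm2, 3.04 at Orc1 and 2.41 at Orc2, and Mcm5, PCNA and geminin had none. Neither had the kinase genes Cdk1 and Cdk2.

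In the cell death class 7 of 9 genes (77.8%) had a peak, with the highest at the caspase inhibitor gene Diap1 (6.73 and 8.02) and the apoptosome gene Dark (4.75 and 7.35). The effector caspase gene Dcp-1 scored 6.12. Of the pro-apoptotic genes, grim had peaks of 4.84 and 4.29, skl of 2.51 and hid of 2.11, and rpr had none. Growth regulators had a peak in 6 of 7 cases (85.7%), with a median score of 3.89 and a highest of 5.94. Myc was at 3.89 and 3.54, and the nucleolar factor gene nclb, at 5.64, was in the highest set of scores. In insulin and TOR signalling 10 of 22 genes had a peak. The receptor gene InR had 7, the highest of 8.04, while Akt (3.76), S6k (2.86) and Rheb (2.75) had a single lower one, and chico, mTor, gig and Tsc1 had none. Other pathways ran from 3 of 8 for JAK/STAT (1 of 8 with the FDR below 0.001, under the share of all genes) and 5 of 11 for Hedgehog to 14 of 22 for EGFR, 14 of 21 for Wnt and 8 of 12 for Hippo. In EGFR signalling the transcription factors pnt and aop had 7 and 5 peaks and Raf 6, and Ras85D and Sos none. In Wnt signalling pan, the TCF factor, and Axn reached 7.11 each. Polycomb and Trithorax genes had a peak in 14 of 23 cases (60.9%), the highest at ph-p (7.64), osa (7.28) and ph-d (7.21), and none at E(z), esc or ash1.

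Classes of neuronal genes differed in their shares, and also in gene length. Transcription factors of medulla neurons had a peak in 15 of 18 cases, with high scores at hth (8.3), Ets65A (8.02), kn (7.61, 8 peaks), ct (7.44) and svp (7.36). No peak was within 1 kb of bsh, fd59A or tj, but within 5 kb all 18 had a peak, against 43.2% of all genes. Axon guidance genes had a peak in 26 of 37 cases (70.3%), with top scores of 8.04 at unc-5, 7.73 at caps, 7.38 at Fas3, 7.31 at Ten-m, 7.26 at Dscam1 and 7.14 at robo2. These genes were long, with a median of 35132 bp, and peaks covered 7.28% of them with their flanks, near the 5.98% for all genes. RNA-binding genes had a peak in 18 of 26 cases, with the highest at heph (8.13), fne (7.74) and msi (7.57), an NB and sensory organ regulator. General neuronal genes were lower, at 13 of 29 (44.8%) with a median score of 3.73. Their median length was 26844 bp, and 44.5% of all genes in the longest of the 5 sets by length had a peak. Peaks covered 3.18% of the general neuronal genes with their flanks, against 5.98% for all genes. Synaptic release genes split. The active zone gene unc-13 had a top score of 7.51 and brp 2.44, and Syt1, Syx1A and Cadps had no peak. The pan-neuronal RNA-binding gene elav had 3 peaks, of 2.83, 2.79 and 7.01. The transmitter genes ple, Trhn, VGlut and VGAT had none. The dpr and DIP families (3 of 32) and the beat and side families (2 of 22), which set synaptic partners, were far below the background of 26.7%, with DIP-alpha (4.81), dpr2 and DIP-beta (2.16 each), side-V (5.72) and beat-Ib (4.72) as the members in reach of a peak.

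For other cell types the shares were 7 of 15 for glia, 7 of 20 (35.0%) for muscle and 2 of 18 for haemocytes and fat body. Within 5 kb, where 43.2% of all genes had a peak, muscle lay below that share (40.0%) and haemocytes and fat body above it (50%). The glial members with a peak included gcm and its neighbour gcm2 (4.97), which start glial fate, and the transporter gene Eaat1 (6.52). The gene of the glial homeodomain factor repo had none, nor had alrm, Gli, Gs2, moody or wrapper. The muscle members scored 5.92 or less, with the highest at how and Act57B (5.81). Among haemocyte and fat body genes those with a peak were gcm and Col4a1 (4.23).

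Housekeeping classes lay between the background and 50% of members. Shares were 27.4% for the respiratory chain (23 of 84), 27.3% for aminoacyl-tRNA synthetases (9 of 33), 31.2% for the proteasome (15 of 48), 31.5% for mitochondrial ribosomal proteins (23 of 73) and 36.4% for translation initiation factors (16 of 44). With overlap of the gene required, the first 4 of these classes fell below the 20% of all genes. Cytoplasmic ribosomal protein genes were higher, at 43 of 86. Their 47 peaks had a median score of 2.67 and a median width of 1603 bp, 89.4% covered a gene end, and all were also within 1 kb of another gene. Among the higher-scoring 50% of the peaks 9 of the 86 had a peak, against 10.9% of all genes. The highest was a peak of 7.68 at RpL4 (3R:27924968-27925531), followed by RpS9 (5.75), RpS19b (5.63) and RpS2 (5.5).

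The large gene families of the periphery were mostly without peaks. Cuticle genes had one in 9 of 117 cases (7.69%), the highest at Cpr66D (7.48). Odorant receptors (3 of 59), ionotropic receptors (3 of 60), gustatory receptors (5 of 60), odorant-binding proteins (2 of 51), cytochrome P450 genes (9 of 85) and glutathione S-transferases (4 of 35) were all under the background too, the last with a share of 11.4%. Many of these genes lie in tandem arrays, where peaks count for more than 1 gene. At the glutathione S-transferase genes GstD9, GstD1 and GstD2, 2 peaks of 2.49 gave 3 members a peak.

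Of the noncoding classes, tRNA genes had a peak in 107 of 290 cases (36.9%), but through 52 peaks, since tRNA genes stand in groups. Small nucleolar RNA genes (66 of 257, 25.7%), antisense RNA genes (130 of 503, 25.8%) and lncRNA genes (454 of 1959, 23.2%) were at or just under the background. MicroRNA genes were lower, at 38 of 260 (14.6%), with the highest scores at mir-9377 (7.19), mir-9385 (7.12) and mir-ban (7.07). For 37 of the 38, each peak was also within 1 kb of another gene. The same held for all 66 snoRNA genes, 127 of the 130 antisense RNA genes and 320 of the 454 lncRNA genes with a peak. The neuronal microRNA gene mir-124 had a peak of 5.79. The share of rRNA genes, 74 of 98 (75.5%), came from 7 peaks of the 5S array.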

How the data were processed

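Targeted DamID with wor-GAL4 compared 2 Dam-Dpn with 2 Dam-only samples. The authors aligned reads with damidseq_pipeline, averaged the replicate profiles and called peaks with find_peaks (min-quant 0.8, FDR below 0.01). Their versions and the build were not given in the sources used here. The methods describe peaks per replicate, whereas the deposited list is of the averaged profile. It holds, per peak, a position, a score from the authors' caller with no stated scale, and an FDR. Depth per sample is unknown, so no counting interval is given, and no p-value was computed.

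Of 4289 peaks, 4282 lay on the main arms (X, 2L, 2R, 3L, 3R and 4) and were analysed. Genes came from the RefSeq table of Release 6, taken to match the file although no build is named. Gene coordinates are not printed. A gene counted where its body plus 1 kb on each side overlapped a peak by at least 1 bp, after the distance used in the study. Covered length is the part of the peaks in that window. Clusters are runs of at least 5 peaks with gaps of at most 5 kb. The members and the 61 gene lists were chosen with earlier results of these data known. Lists share members, and the 3 larger groups were formed after values were seen. In the lists 13 entries matched through another symbol, 2 did not match and were not analysed, and side was taken out of the Hes-type list, where it had been entered in error. Named genes lie at the 10 highest, 10 widest or 10 most clustered peaks, have the most peaks or covered length, or are, per list, up to 6 members with the highest scores and up to 6 without a peak (all for lists of 20 or fewer). Others in the text were chosen after their values were seen. Counts were checked on simulated peaks. Python 3.11.15, numpy 2.4.6, pandas 2.3.3, scipy 1.17.1 and matplotlib 3.10.9 were used. Alternatives were the distance, the FDR, the score, joining of near peaks, the cluster gap and the gene set.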

Additional observations from a re-analysis of the deposited data

Results flagged for a closer look

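The list also holds 7 peaks on the Y chromosome, which entered no count above. They came to notice because they passed the same FDR below 0.01 on a chromosome outside the arms described. Their widths were between 251 and 3037 bp and their scores between 1.98 and 4.09. The sex of the pooled brains was not used here, and the part of repeated sequence in these peaks was not tested.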

How the results depend on the processing

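No paired analysis was possible because the list is of averaged replicates and carries no values per replicate. For the same reason no replicate could be left out. The promoter window was not run, since no promoter positions were used. The number of genes with a peak (4654) stayed within 1.5 times of that value when the peak had to overlap the gene (3529), with the FDR below 0.001 (3546), with protein-coding genes (3711) and with peaks closer than 500 bp joined (4654). It was 7635 within 5 kb and 1921 with the higher-scoring 50% of the peaks. The share of peaks with no gene in reach (16.5%) was 21.6% with overlap, 6.94% within 5 kb, 20.3% with the higher-scoring peaks and 22.4% with protein-coding genes. Median width (1408.5 bp) was 1369 bp with the stricter FDR, 1321 bp with the higher-scoring peaks and 1470 bp after joining. The share of peaks in clusters of at least 5 (13.6%) was set mainly by the gap allowed, with 1.21% at 2 kb and 32.7% at 10 kb. It was 12.1% with the higher-scoring peaks and 11.0% after joining. The number of classes above the share of all genes (45 of 61) was 41 with overlap, 46 within 5 kb, 43 with the stricter FDR and 40 with the higher-scoring peaks. With the higher-scoring peaks 7 classes changed side, namely cytoplasmic and mitochondrial ribosomal proteins, the proteasome, the respiratory chain, aminoacyl-tRNA synthetases, tRNA, and haemocytes and fat body. Sides also changed for 4 with overlap (mitochondrial ribosomal proteins, proteasome, respiratory chain, aminoacyl-tRNA synthetases), 3 within 5 kb (muscle, haemocytes and fat body, snoRNA) and 2 with the stricter FDR (JAK/STAT, mitochondrial ribosomal proteins). Of 582 named genes, 190 had a number of peaks lower by more than 1.5 times with the higher-scoring peaks. Within 5 kb, 160 had a number higher by more than 1.5 times, or had a peak where there was none within 1 kb. Where values moved, the cause was not tested beyond what each alternative adds or removes by construction.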

Other observations

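Some stretches with many genes held no peak. The longest gene-rich gap ran from 3R:27300970 to 27924967, 623998 bp with 53 protein-coding genes. Another, 2L:4388720-4805064, held 42 over 416345 bp, and 3R:23346653-23749013 held 51 over 402361 bp. Of the gaps between neighbouring peaks, 305 (7.13%) were longer than 100 kb. At the other end, 212 gaps (4.96%) were at most 500 bp, and the shortest was 3 bp.

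Peaks could hold whole genes. In total 403 genes, 119 of them protein-coding, lay wholly inside a peak. A peak of 4423 bp at histone genes (2L:21486747-21491169) had 7 genes within 1 kb and a score of 2.07. The largest number of genes within 1 kb of a single peak was 17. The narrowest peaks were 34 bp inside lncRNA:CR32773 and 36 bp at al.

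Of the clusters of at least 5 peaks, 22 of 92 had a median score below the median of the whole list, and medians of clusters ran between 2.04 and 7.2. Runs of 6 peaks with no gene within 1 kb of any of them lay at 3R:5089347-5104677, X:20713610-20733290 and 3L:12663585-12686885.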
